A study of Homo sapiens with 6 samples.

Results

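The 6 genes of the ISG15 conjugation pathway, ISG15, UBA7, UBE2L6, HERC5, HERC6 and USP18, were chosen by name for their roles in that pathway. They were taken from 24131 protein-coding and lncRNA genes with an annotated transcription start site (TSS). A peak region was assigned to a gene when it overlapped the window of 1 kb before and after any annotated TSS of that gene, and the siDLEU1 lists were set against the siCONT lists for each histone mark. The study asked how depletion of the long noncoding RNA DLEU1 alters histone marks across the genome of oral squamous cell carcinoma (OSCC) cells. HSC3, an established human OSCC line, was transfected with a control siRNA (siCONT) or with an siRNA against DLEU1 (siDLEU1) and was used for chromatin immunoprecipitation sequencing (ChIP-seq) 72 h later. Trimethylated histone H3 lysine 4 (H3K4me3) and acetylated histone H3 lysine 27 (H3K27ac) were each measured in 1 library per siRNA. The 4 peak lists therefore carry no replicate check, no p-value is given, and differences between lists cannot be separated from differences between single libraries. HSC3 is a single line and the labels name a single siRNA against DLEU1. The depth of the knockdown is not measured by ChIP-seq, and 2 input libraries were not analysed here.

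ISG15 is a ubiquitin-like protein that is attached to lysines of other proteins in a process called ISGylation. UBA7 is the E1 enzyme that activates it, UBE2L6 is the E2 enzyme that carries it, and HERC5 is the main E3 ligase that transfers it to newly made proteins in human cells. HERC6 is the neighbouring relative of HERC5 and acts as the principal ISG15 ligase in mice, while USP18 is the protease that removes ISG15 and also restrains type I interferon receptor signalling. Transcription of these genes is induced by interferon through the ISGF3 complex, which binds interferon-stimulated response elements (ISREs). H3K4me3 marks active or poised TSSs, and H3K27ac marks active promoters and enhancers.

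Sequences around the TSSs of 5 of the genes are shown because the peak regions described here cover, or stop short of, ISRE-type motifs. The motif searched was a pair of GAAA half-sites with any 2 bases between them, on either strand, and overlapping matches were allowed. Capitals mark its matches. Sequences were read from the GRCh37 reference genome on the strand of the gene, 5′ to 3′, and positions were counted from the Ensembl canonical TSS.
ISG15, chr1:948677-948876, plus strand, −200 to −1: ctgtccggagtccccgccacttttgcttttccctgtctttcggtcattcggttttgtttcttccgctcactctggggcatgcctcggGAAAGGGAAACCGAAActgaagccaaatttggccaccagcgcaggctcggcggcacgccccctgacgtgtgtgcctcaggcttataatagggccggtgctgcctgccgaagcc
UBA7, chr3:49851387-49851586, minus strand, −200 to −1, no match: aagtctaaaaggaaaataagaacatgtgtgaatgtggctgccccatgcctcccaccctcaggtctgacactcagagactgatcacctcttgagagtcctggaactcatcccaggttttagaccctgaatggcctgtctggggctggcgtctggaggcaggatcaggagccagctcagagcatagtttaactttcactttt
UBE2L6, chr11:57334778-57334807, minus strand, +338 to +367: ccaaaactggTTTCAATTTCgcttttcctg
HERC5, chr4:89378070-89378269, plus strand, −200 to −1: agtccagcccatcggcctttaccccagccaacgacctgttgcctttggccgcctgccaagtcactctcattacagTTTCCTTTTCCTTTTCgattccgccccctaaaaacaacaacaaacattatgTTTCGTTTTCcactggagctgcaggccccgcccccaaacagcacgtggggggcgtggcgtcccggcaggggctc
HERC6, chr4:89300525-89300583, plus strand, +521 to +579: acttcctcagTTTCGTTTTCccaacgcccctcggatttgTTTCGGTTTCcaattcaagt

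This paired motif occurred in 3.41% of 24016 promoters, taken as 250 bases before to 50 bases after the canonical TSS, and in those of 2 of these 5 genes, ISG15 and HERC5. The tandem form, with 3 GAAA half-sites each 2 bases apart, occurred in 0.133% of promoters and in those of ISG15 and HERC5. UBE2L6 and HERC6 had their matches downstream of the TSS, and UBA7 had none within 1 kb on either side. The gamma-activated sequence TTCNNNGAA was found in 6.87% of promoters and the TATA motif TATAAA in 10.3%, each in the promoter of 0 of these 5 genes. These matches describe the sequence only.

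The lists held 19705 (siCONT) and 17672 (siDLEU1) H3K27ac regions and 58582 and 56943 H3K4me3 regions on chromosomes 1 to 22 and X. The median region rested on 41 to 75 fragments at its summit. Sequencing depth was estimated from the average fragment number solved from the peak values, with the shortest listed region taken as the fragment length. On that assumption, the siDLEU1 library had 1.37 times the depth of siCONT for H3K27ac and 0.785 times that for H3K4me3. The squamous epithelial markers KRT5, KRT14, KRT17, TP63, CDH1 and LAMB3 had regions for both marks in siCONT (6 of 6). Leukocyte markers had regions for 0 of 6 genes in H3K27ac and 1 of 6 in H3K4me3, and stromal and endothelial markers for 0 of 5 and 1 of 5. Fewer cells that carry a mark and less of the mark per cell cannot be told apart in these bulk libraries.

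Signal was expressed as the percentile of fold enrichment within a list, where 100 is the highest region and 0 is given to a gene with no region. For each gene the strongest region at its TSSs was used. Of the 6 genes, 5 had an H3K27ac region in siCONT and 5 in siDLEU1, against 56.3% and 53.3% of all genes. For H3K4me3 the numbers were again 5 and 5, against 56.6% and 56.4%. UBA7 lacked an H3K27ac region and HERC5 lacked an H3K4me3 region, in both lists in each case. No gene of the pathway lost all its regions in siDLEU1, an outcome seen for 5.62% (H3K27ac) and 3.24% (H3K4me3) of all genes with a siCONT region. Among regions with −log10 q of 10 or more, UBE2L6 had H3K27ac regions in siCONT and none in siDLEU1.

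The percentile of H3K27ac did not move one way across the pathway. It was lower by at least 10 percentile points at 1 of 5 genes (ISG15), where the share among all genes was 36.9%, and higher by at least 10 points at 1 of 5 (HERC6), against 16.7%. The HERC6 change no longer reached 10 points among regions with −log10 q of 10 or more (4.94) or when regions were ranked by fragments (5.79). The median change was 2.35 points in the pathway and −4.6 points among 13592 genes with a siCONT region. H3K4me3 was lower by at least 10 points at 2 of 5 genes (HERC6 and USP18), against 19.1% of all genes, and higher by that much at 0 of 5, against 18.4%. It was lower by any amount at 4 of 5 genes, against 48.1%, and the median change was −8.13 points in the pathway and 0.247 among 13670 genes. With 5 genes and 1 library per siRNA, these counts are descriptions of the lists.

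**Figure D1:**
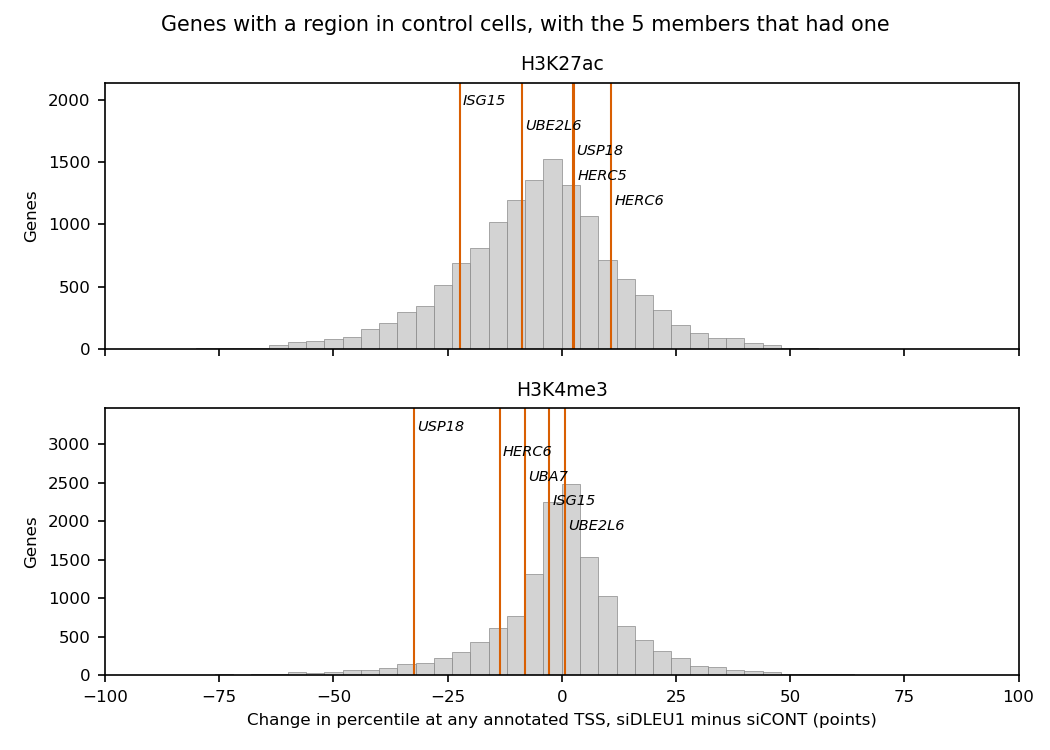
Histograms of the change in percentile (siDLEU1 minus siCONT, in points, horizontal axis) over all genes with a siCONT region (vertical axis, number of genes), for H3K27ac (top) and H3K4me3 (bottom). Orange lines mark the 5 pathway genes that had a region: for H3K27ac they lie on both sides of 0, and for H3K4me3 USP18 lies farthest to the left, at −32.4 points.

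The modifier gene itself, ISG15 (ENSG00000187608), lies on chromosome 1 (936518–949920, plus strand, GRCh37) with 2 exons in its canonical transcript and a canonical TSS at 948877. The H3K27ac region there ran from 948310 to 949893 in siCONT and from 948575 to 949389 in siDLEU1, over the upstream sequence, exon 1, intron 1 and exon 2. Its percentile was 68.3 in siCONT and 46.0 in siDLEU1, a change of −22.3 points, and 16.1% of all genes had a more negative change. The region was 1584 bp wide in siCONT and 815 bp in siDLEU1. The tandem ISRE-type matches at −113 and −107 lay inside all 4 regions at the canonical TSS, whereas a match at −315 lay inside the siCONT H3K27ac region and both H3K4me3 regions but outside the narrower siDLEU1 H3K27ac region.

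H3K4me3 at ISG15 depended on which TSS was taken. At the canonical TSS the region ran from 948113 to 949942 in siCONT (85.3) and from 948220 to 950122 in siDLEU1 (65.2), a change of −20.1 points. With canonical TSSs, 3 of 5 pathway genes were lower by at least 10 points for H3K4me3, against 19.2% of all genes. Over all 3 annotated TSSs, the strongest siDLEU1 region was instead at 935534–937281, at an upstream TSS (936518) that lies beside HES4, a transcriptional repressor gene of the HES family, and its percentile was 82.5. The change over any TSS was therefore −2.79 points, between regions that do not overlap. By fold enrichment, HES4 had a change of 30 points for H3K4me3 and 6 points for H3K27ac. The control background at its strongest summits was 3.76 times the genome average in siCONT and 1 times in siDLEU1 for H3K4me3, and 2.01 and 1 times for H3K27ac. Ranked by fragments, the same HES4 regions were at 76.1 in siCONT and 75.4 in siDLEU1 for H3K4me3, and at 41.3 and 30.02 for H3K27ac. Neither rank by fragments was higher in siDLEU1. Summit coverage at HES4 was higher for H3K4me3, at 39.4 times the average in siCONT and 46.2 times in siDLEU1. For H3K27ac it was 41.7 times in siCONT and 26.1 times in siDLEU1, where the fragment number had 2 possible solutions. The local control background at the canonical H3K4me3 summit was 1 times the genome average in siCONT and 2.16 times in siDLEU1. Fold enrichment is divided by that background, and ranking by fragments alone gave −8.17 points at the canonical TSS.

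UBA7 (ENSG00000182179, chromosome 3, 49842642–49851386, minus strand, 24 exons) encodes the activating enzyme. It had an H3K4me3 region at its TSS from 49850672 to 49851857 in siCONT and from 49850995 to 49851372 in siDLEU1. The percentile was 64.6 in siCONT and 56.5 in siDLEU1 (−8.13 points), while the region was 1186 bp wide in siCONT and 378 bp in siDLEU1. The control background at the summit was 3.76 times the average in siCONT and 1.20 times in siDLEU1, and the summit held 106 and 40 fragments. Ranked by fragments, the change at UBA7 was −35.8 points. Another siCONT region in intron 21 (49844649–49845005, percentile 27.2) had no counterpart in siDLEU1. No H3K27ac region lay within 1 kb of a UBA7 TSS, and a region came into the window in both lists when it was widened to 3 kb.

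UBE2L6 (ENSG00000156587, chromosome 11, 57319129–57335757, minus strand, 4 exons), the conjugating enzyme, carried a pair of regions that flank its canonical TSS at 57335145. The H3K27ac region over exon 1 and intron 1 had a percentile of 32.8 in siCONT and 24.2 in siDLEU1 (−8.65 points). The region upstream of the TSS had an H3K27ac percentile of 28.7 in siCONT and 6.11 in siDLEU1. The control background at its summit was 1.13 times the average in siCONT and 2.28 times in siDLEU1, with 39 and 37 fragments. Ranked by fragments it was at 23.7 and 13.9, with summit coverage of 26.2 and 19.3 times the average. H3K4me3 over exon 1 and intron 1 was 54.9 in siCONT and 55.7 in siDLEU1 (0.785 points), and the upstream region was 42.9 and 31.8. At that upstream H3K4me3 summit the control background was 1.13 times the average in siCONT and 2.16 times in siDLEU1, and the direction turned when regions were ranked by fragments (33.8 and 41.2), with summit coverage of 17.1 and 22.8 times the average. A further H3K4me3 region, in intron 1 at 57333940–57334275, was present in siCONT (46.3) and absent from siDLEU1. The control background at the first intron summit was about 2 times the average in siCONT for both marks (2.01 for H3K27ac and 1.88 for H3K4me3) and 1 times in siDLEU1. Ranked by fragments, the change at UBE2L6 was −24 points for H3K27ac and −15 points for H3K4me3. The ISRE-type match at +348 lay inside the exon 1 and intron 1 region in all 4 lists.

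The ligase genes HERC5 and HERC6 are neighbours on chromosome 4, and they differed in both marks. HERC5 (ENSG00000138646, 89378270–89427314, plus strand, 23 exons) had an H3K27ac region low in the lists, at 18.4 in siCONT and 21.1 in siDLEU1 (2.67 points). The siCONT region spanned the TSS from 89377651 to 89378868, and the siDLEU1 region covered only sequence upstream, from 89377794 to 89378055. Its width was 1218 bp in siCONT and 262 bp in siDLEU1, so 21.5% of the length was kept, and 6.08% of all genes kept less. The ISRE-type matches at −125, −119 and −74 lay inside the siCONT region and outside the siDLEU1 region, which ended at position −215. These summits held 28 and 35 fragments, so the boundaries are those of weak regions. No H3K4me3 region was listed within 10 kb of HERC5 in either list.

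HERC6 (ENSG00000138642, 89299891–89364249, plus strand, 23 exons) had the highest H3K4me3 percentile of the pathway. It was 96.5 in siCONT and 82.9 in siDLEU1, a change of −13.6 points, with 141 and 72 fragments at the summit. The H3K27ac percentile at HERC6 was higher in siDLEU1, at 54.9 in siCONT and 65.7 in siDLEU1 (10.8 points), while its summit coverage ratio was 0.787. The regions kept nearly the same extent, with widths of 730 and 740 bp for H3K27ac and 892 and 824 bp for H3K4me3. The control background was 1 times the average at all these summits. Both ISRE-type matches, at +531 and +560 in intron 1, lay inside the regions of all 4 lists.

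USP18 (ENSG00000184979, chromosome 22, 18632885–18660164, plus strand, 11 exons) encodes the deconjugating protease and had the largest percentile difference of the pathway by fold enrichment. Its H3K4me3 region had a percentile of 90.2 in siCONT and 57.9 in siDLEU1, a change of −32.4 points, and 3.84% of all genes had a more negative change. The region ran from 18632054 to 18633754 in siCONT and from 18632171 to 18633198 in siDLEU1, with 130 and 54 fragments at the summit. The control background was 1.66 times the average in siCONT and 2.16 times in siDLEU1. Ranked by fragments, which does not use that background, the change was −27.2 points. H3K27ac at USP18 was 42.9 in siCONT and 45.3 in siDLEU1 (2.35 points), with widths of 1692 and 1279 bp, and the change was −11.8 points among regions with −log10 q of 10 or more. USP18 has near-identical copies in the genome, such as USP41, and how reads shared with them were placed is not given in the sources used here.

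**Figure D2:**
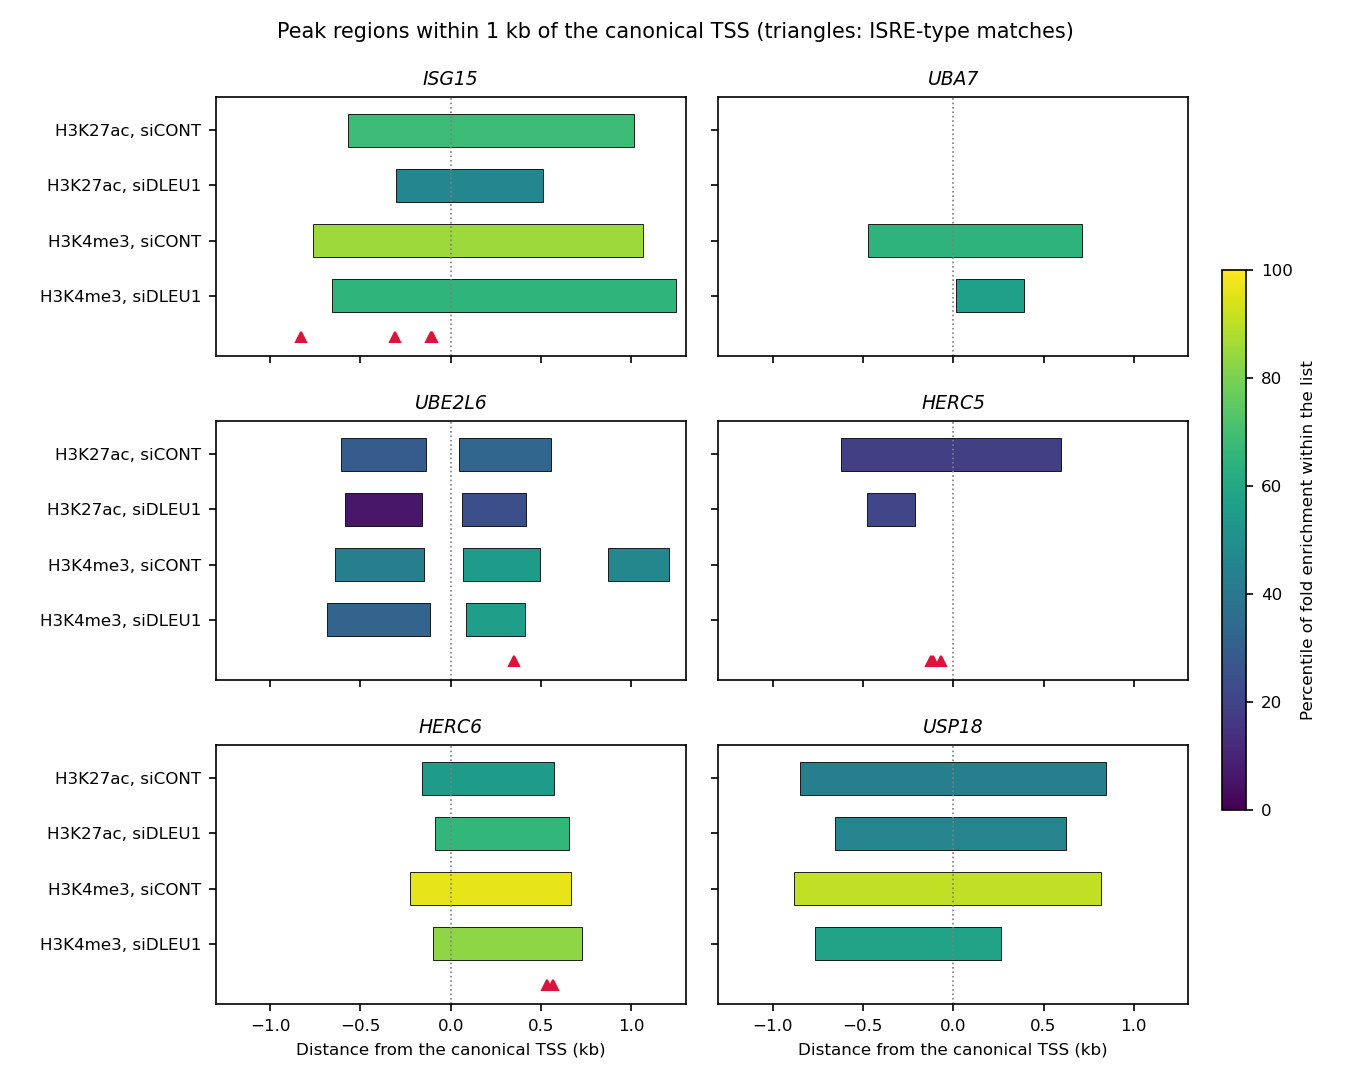
Peak regions (bars) of the 4 lists within 1 kb of the canonical TSS of each gene, on an axis of distance from the TSS in kb with the gene reading left to right, coloured by percentile of fold enrichment. Red triangles mark ISRE-type matches, which are not shown for USP18. The siDLEU1 H3K27ac bar of HERC5 ends before the matches, and the siDLEU1 bars of ISG15 (H3K27ac), UBA7 and USP18 (H3K4me3) are shorter than the siCONT bars.

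**Figure D3:**
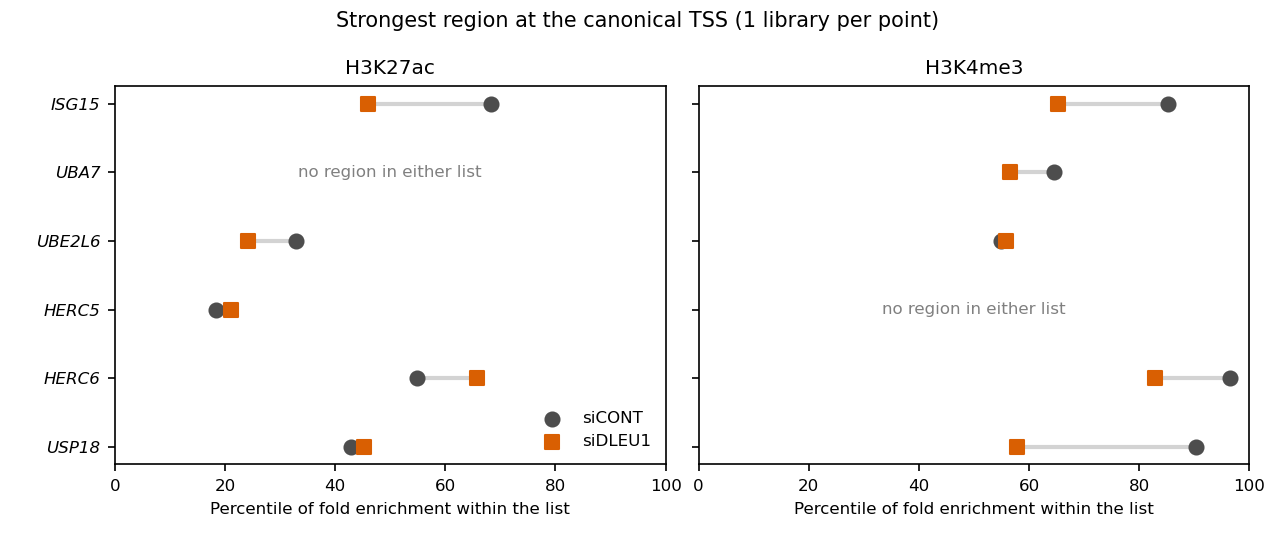
Percentile of fold enrichment (horizontal axis) of the strongest region at the canonical TSS of each gene, for H3K27ac (left) and H3K4me3 (right). Grey circles are siCONT and orange squares siDLEU1, each from 1 library. ISG15 was lower in siDLEU1 for both marks, and HERC6 was lower for H3K4me3 and higher for H3K27ac.

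A percentile ranks a region within its list and does not show a shift shared by the whole list. Summit coverage was therefore also expressed as a multiple of the genome average of its own library. At the canonical TSS, H3K27ac summit coverage was lower in siDLEU1 at 5 of 5 genes, as it was at 98.6% of all genes with a region in both lists (98.5% over any TSS), whose median ratio was 0.616. ISG15 had 58.5 times the average in siCONT and 27.7 times in siDLEU1, a ratio of 0.473 (95% interval 0.330–0.673, counting error only). The ratio was 0.504 (0.324–0.775) at UBE2L6, 0.741 (0.516–1.063) at USP18, 0.787 (0.557–1.114) at HERC6 and 0.97 (0.573–1.656) at HERC5. The pathway genes thus lay on both sides of the all-gene median for H3K27ac, and the intervals of all 5 include it.

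H3K4me3 summit coverage was lower in siDLEU1 at 5 of 5 genes at the canonical TSS, where 19.1% of all genes with a region in both lists were lower and the median ratio was 1.26 (quartiles 1.06 and 1.48). UBA7 had 50.3 times the average in siCONT and 26.0 times in siDLEU1, a ratio of 0.517 (0.350–0.75). USP18 had 61.7 and 35.1 times the average, a ratio of 0.569 (0.407–0.787), and HERC6 had 66.9 and 46.8 times, a ratio of 0.7 (0.519–0.936). The ratios at UBE2L6 (0.889, interval 0.572–1.369) and ISG15 (0.97, interval 0.691–1.354) had intervals that include both 1 and the all-gene median of 1.26. Over any TSS the count was 4 of 5, against 19.6%, because the region beside HES4 stood for ISG15 with a ratio of 1.09. Of all genes, 0.522% had a lower ratio than UBA7, 0.862% a lower ratio than USP18 and 2.78% a lower ratio than HERC6. This measure does not use the local control background.

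**Figure D4:**
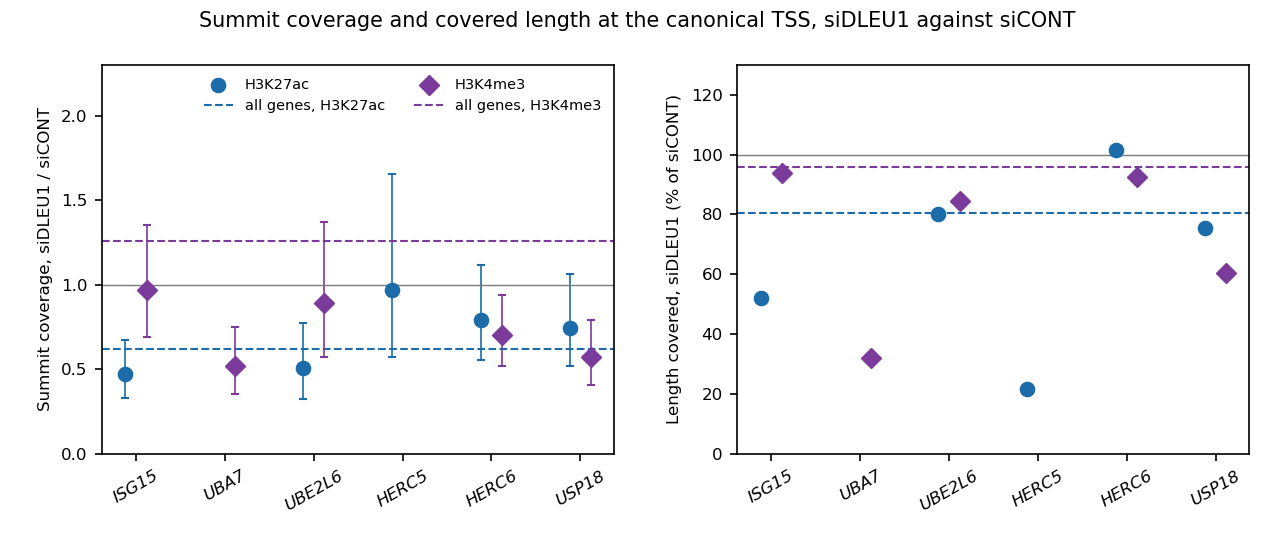
Left, ratio of summit coverage over the library average, siDLEU1 to siCONT, at the canonical TSS, with bars for 95% counting intervals. Right, length covered by regions within 1 kb of the canonical TSS in siDLEU1 as a percentage of siCONT. Blue circles are H3K27ac, purple diamonds H3K4me3 and dashed lines the all-gene medians. All 5 H3K4me3 ratios lie under the all-gene median of 1.26, and the intervals of UBE2L6 and ISG15 include it.

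Over any TSS, regions covered 7912 bp of the windows of the pathway for H3K27ac in siCONT and 4614 bp in siDLEU1 (58.3%). For H3K4me3 they covered 8410 and 6529 bp (77.6%). Less than 2/3 of the covered length was kept at 2 of 5 genes for H3K27ac (ISG15 and HERC5), against 28% of all genes, and at 2 of 5 for H3K4me3 (UBA7 and USP18), against 12.7%. Over any TSS, the median gene kept 75.6% in the pathway and 78.9% among all genes for H3K27ac, and 70.6% and 93% for H3K4me3. At the canonical TSS these were 75.6% and 80.6% for H3K27ac, and 84.3% and 95.9% for H3K4me3. All 7 siCONT H3K27ac regions at the pathway's TSSs, and 9 of the 11 siCONT H3K4me3 regions, were overlapped by a siDLEU1 region by at least 1 bp. The share over all siCONT regions was not taken, so these overlap counts have no background.

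Genes around the pathway were described by the same counts. Of the interferon receptor subunits and the ISGF3 components with their kinases, all 7 had siCONT regions for both marks. Over any TSS, H3K27ac was lower by at least 10 points at 3 of 7, against 36.9% of all genes. It was higher by that much at 2 of 7, against 16.7%, with a median change of −3.79. At the canonical TSS it was lower by that much at 4 of 7 and higher at 2 of 7. The share of all genes was not taken at that TSS, so these counts have no background. The median there was −15.3 points, against −4.5 among all genes. TYK2, a receptor-bound kinase, was at 91.7 in siCONT and 76.1 in siDLEU1. IFNAR1, a type I interferon receptor chain, was at 73.2 and 93.7, and STAT2, a component of ISGF3, at 55.9 and 72.8. These are percentiles. H3K27ac summit coverage was lower in siDLEU1 at 7 of 7, as at 98.5% of all genes with a region in both lists. Its median ratio was 0.517 in this list and 0.615 among all genes. The ratio was 0.517 at TYK2, 0.892 at IFNAR1 and 0.415 at STAT2. Over any TSS, H3K4me3 passed 10 points at 0 of these 7 genes in either direction, against 19.1% of all genes lower and 18.4% higher. Its summit coverage was lower at 2 of 7, against 19.6%, with a median ratio of 1.18. At the canonical TSS, H3K4me3 was lower by at least 10 points at 1 of 7, against 19.2%. Its summit coverage there was lower at 1 of 7, against 19.1%.

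The OAS and IFIT genes, interferon-induced RNA sensors and RNA-binding proteins, were the other interferon target genes examined. The study had already reported lower H3K27ac and H3K4me3 at IFIT1 and OAS1 after the knockdown. The counts for this list are therefore not independent of that report. H3K27ac was lower by at least 10 points at 7 of 8 of them, against 36.9% of all genes, with a median change of −22.1 points. OAS1 and OASL had no siDLEU1 region, from 68.3 and 62.8 in siCONT. OAS3 was the exception by percentile, at 68.1 in siCONT and 69.8 in siDLEU1, with an H3K27ac summit coverage ratio of 0.491. H3K4me3 was lower by at least 10 points at 5 of 8, against 19.1% of all genes, with a median of −15.2 points. Its summit coverage was lower at 7 of 7 with a region in both lists, against 19.6%, with a median ratio of 0.691. The median H3K4me3 ratio over any TSS was 0.7 in the conjugation pathway. For H3K27ac the 2 lists stood at −22.1 and 2.35 points, a difference that 1 library per siRNA does not allow to be tested. The pathway median changed sign with the setting, at −11.5 points among regions with −log10 q of 10 or more. The OAS and IFIT list was not run with that threshold, wider windows or other ranking values.

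Other enzymes that act on ISG15 made up a list of 8 further ligases and deconjugases. Their H3K27ac was lower by at least 10 points at 1, against 36.9% of all genes. It was higher by that much at 2, against 16.7%, with a median of −3.73 points. USP2, a ubiquitin protease, was at 23 in siCONT and 8.45 in siDLEU1, and TRIM25, a ubiquitin ligase that also transfers ISG15, at 76.2 and 67.1. The proteases USP21 (84.5 and 97.9) and USP5 (56.6 and 69.8) had higher percentiles in siDLEU1, with H3K27ac summit coverage ratios of 0.776 and 0.598. That coverage was lower at 8 of 8 genes of the list, as at 98.5% of all genes with a region in both lists. Its median ratio was 0.643, against 0.615 among all genes. H3K4me3 summit coverage was lower at 0 of these 8 genes, against 19.6% of all genes, with a median ratio of 1.41.

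The genes whose 4 percentiles, over any TSS, lay nearest to those of ISG15 were HS1BP3 (Euclidean distance 1.29 points), ABHD8 and DDA1 (2.83 each, with the same values), CORO2A (3.4) and ARPP19 (3.57). Of 24130 other genes, 104 lay within 10 points. The likeness rests on 4 lists and on the region beside HES4 for H3K4me3 in siDLEU1.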

How the data were processed

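H3K27ac and H3K4me3 ChIP-seq was analysed in HSC3 cells, with 1 library per siRNA and mark. Per the study's methods, reads were mapped to hg19 with bowtie2, peaks were called with MACS2 and peaks were annotated with HOMER. The MACS2 settings, and which library served as its control, are not given in the sources used here. The deposited peak lists give for each region a fold enrichment (a linear ratio to the local control), −log10 p and −log10 q values, and a score that the authors' caller derives from q and that was not used. Depth per library is not in the files. Fragments at each summit, the scale to the control and the background were solved from the fold and p by inverting the MACS2 Poisson model, and the solution was tested on simulated data.

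Each gene took its highest percentile of fold enrichment among regions within 1 kb of a TSS in GENCODE hg19 annotation, restricted to genes with a curated RefSeq transcript. Fixed sizes of change (10 points, 2/3 of the covered length) stood in for tests. Summit coverage is the solved fragments over the library average, with 95% Clopper-Pearson intervals that cover counting error only. The pathway genes and the comparison lists were chosen with earlier results of these data known. Named genes were the 6 pathway genes, the 2 lowest and 2 highest H3K27ac changes of each list, genes that share a region with a pathway gene, and the 5 nearest to ISG15. Some of these genes, and the promoter sequence of USP18, are not reported here. The alternatives tried were a stricter threshold (−log10 q of 10 or more), windows of 3 and 5 kb, 1 TSS per gene, other ranking values and a 50% overlap. Python 3.11.15, numpy 2.4.6, scipy 1.17.1, pandas 2.3.3 and matplotlib 3.10.9 were used.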

Additional observations from a re-analysis of the deposited data

How the results depend on the processing

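For H3K27ac, pathway genes with a siCONT region numbered 4 under the stricter threshold (−log10 q of 10 or more) and 6 with windows of 3 or 5 kb, against 5 otherwise. For H3K4me3 they numbered 5 under every alternative tried. The sign of the median H3K27ac change depended on the setting: it was −11.5 points with the stricter q (ISG15 −44.2 and USP18 −11.8), −2.28 with windows of 3 or 5 kb, −0.92 ranked by fragments, 0.885 ranked by −log10 p and 2.67 at the outermost TSS. The H3K4me3 median stayed negative: −11.1 with the stricter q, −5.79 with 3 or 5 kb, −14.9 ranked by −log10 p, −17.2 by fragments and −13.6 at the canonical TSS. The canonical TSS was chosen after seeing the data; with it, ranking by fragments gave −0.92 (H3K27ac) and −17.2 (H3K4me3), and ranking by −log10 p gave 0.885 and −17.3. The percentage of H3K27ac length kept was 49.2 with the stricter q, 64.2 at 3 kb, 65 at 5 kb, 61 at the outermost TSS and 62.7 at the canonical TSS. For H3K4me3 it was 90.2, 74.2, 74.8, 79.2 and 72.4. With the stricter q, 3 genes had a siDLEU1 H3K27ac region and 4 of 6 siCONT H3K27ac regions were overlapped. Requiring 50% of both regions left 5 of 7 H3K27ac and 5 of 11 H3K4me3 regions overlapped. At the outermost TSS, 1 gene was lower for H3K27ac and the ISG15 change turned to 6 points, because that TSS is beside HES4. For the other shifts the cause was not tested. USP18 H3K4me3 ranged from −66.7 to −27.2 points, HERC6 H3K4me3 from −28 to −13.6 and HERC6 H3K27ac from 4.94 to 12.1. ISG15 H3K4me3 ranged from −20.1 to 30 and UBE2L6 H3K4me3 from −15 to 3.61. No paired analysis was possible because each siRNA and mark has 1 library, and no library could be left out for the same reason. Regions with few fragments, such as HERC5, limit what the depth can show.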

Other observations

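Relatives of the pathway enzymes that serve other modifiers had regions for both marks. The E1 enzymes listed were those of ubiquitin, SUMO, NEDD8 and related modifiers. Their H3K27ac was lower by at least 10 points at 3 of 8, against 36.9% of all genes. It was higher by that much at 1 of 8, against 16.7%, with a median change of −6.21 points. ATG7, the E1 of autophagy modifiers, was at 42.7 in siCONT and 23.6 in siDLEU1, and NAE1, a subunit of the NEDD8 E1, at 71.8 and 55.2. UBA6 (32.9 and 51.4) and UBA3 (47.8 and 55.9) had higher percentiles in siDLEU1, with H3K27ac summit coverage ratios of 0.544 and 0.551. That coverage was lower at 8 of 8 of these enzymes, as at 98.5% of all genes with a region in both lists. Its median ratio was 0.572, against 0.615 among all genes. H3K4me3 summit coverage was lower at 0 of these 8 genes, against 19.6% of all genes, with a median ratio of 1.49, where UBA7 had 0.517.

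HERC and UBE2L relatives had H3K27ac lower by at least 10 points at 2 of 5, against 36.9% of all genes. These were HERC3 (91.4 and 58.8) and HERC2 (62.8 and 45.3). HERC1 (72.6 and 81.8) and UBE2L3 (90 and 94.6) had higher percentiles, with H3K27ac summit coverage ratios of 0.726 and 0.676. That coverage was lower at 5 of 5 of these relatives, against 98.5% of all genes, with a median ratio of 0.591. Their H3K4me3 summit coverage was lower at 0 of 5, with a median ratio of 1.39. HERC3 lies on chromosome 4 like HERC5 and HERC6. Ubiquitin and ubiquitin-like modifier genes had H3K27ac lower by at least 10 points at 3 of 11, against 36.9% of all genes. It was higher by that much at 2 of 11, against 16.7%. RPS27A was at 95.3 in siCONT and 61.9 in siDLEU1, SUMO3 at 35.3 and 7.97 and SUMO2 at 85.5 and 98.8. Summit coverage for H3K27ac was lower at 11 of 11 of these genes, against 98.5% of all genes, with a median ratio of 0.586. Their H3K4me3 summit coverage was lower at 1 of 11, with a median ratio of 1.33. The share of all genes with lower H3K4me3 summit coverage was 19.6%.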
